A study of Mus musculus with 2 samples.

Results

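Liver sinusoids are lined by a fenestrated endothelium that differs along the path of the blood, from the portal tract to the central vein. The cells described here are sinusoidal endothelial cells with more transcripts of 4 periportal genes than of 3 pericentral genes. A kept barcode (500 or more UMIs, which are counted RNA molecules, 200 or more detected genes, and no more than 20% of UMIs from mitochondrial genes) was sinusoidal with at least 3 UMIs of Stab2, Clec4g, Fcgr2b and Kdr together, no UMI of Ptprc and fewer than 3 of Vwf, Rspo3 and Wnt9b together. It was periportal-type when its UMIs of Efnb2, Dll4, Adam23 and Ntn4 outnumbered those of Kit, Wnt2 and Thbd. This left 474 barcodes in one library and 874 in the other, 1348 in all, of 33125 barcodes deposited. The comparison class, pericentral-type, has the opposite inequality and held 772 and 774 barcodes.

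Both libraries come from liver non-parenchymal cells of male mice aged 5 months on standard chow, released with collagenase and captured with 10x Genomics v3 chemistry. In Hep-ADKTg mice (Tg) the albumin promoter drives adenosine kinase, the enzyme that turns adenosine into AMP, in hepatocytes, and Hep-ADKWT mice (WT) are the controls. There was 1 library for each genotype, and the labels do not say whether it came from a single mouse or from several. Genotype, animal, preparation and library cannot be told apart, no test was possible, and every interval is a 95% interval for counting error only. Values are given in the order WT, Tg, and levels are CPM, UMIs of the gene per 1000000 summed UMIs of the class.

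As background, blood enters the sinusoid at the portal side from arterial and portal branches, and endothelial cells there carry genes shared with arteries. Dll4 is a Notch ligand of arterial endothelium, Efnb2 encodes the arterial ephrin-B2, Ntn4 a netrin of basement membranes, and Adam23 a membrane protein of the ADAM family that lacks protease activity. On the pericentral side, endothelial Wnt2 helps to maintain the central gene program of hepatocytes, Kit is the receptor for stem cell factor, and Thbd encodes the anticoagulant receptor thrombomodulin. Stabilin-2 (Stab2) and Clec4g are endocytic and lectin receptors typical of sinusoidal endothelium.

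The libraries held 15663 and 17462 barcodes, of which 12961 and 14853 were kept. Members had medians of 4848 and 3470.5 UMIs, close to those of pericentral-type cells (5016 and 3590.5). The libraries shared 88 barcodes, and none of these was a member in both. Hepatocyte RNA differed between the libraries: the 25 hepatocyte markers summed to 5870 and 51386 CPM in members and to 6543 and 47717 CPM in pericentral-type cells. From a hepatocyte profile of the same library, 3.54% and 25.3% of member UMIs were estimated to be of hepatocyte origin. Erythroid markers, by contrast, summed to 18565 and 2015 CPM in members, and 51.4% of them in WT lay in 5 barcodes. Adk, the transgene's product, stood at 41.9 and 147 CPM in members, with 63.3% and 100% of its UMIs estimated as hepatocyte-derived, the latter at the cap of the estimate. It therefore checks neither label, and the groups are named by their labels alone.

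Stab2 and Clec4g helped to choose the members, so their levels describe the choice and do not check the label. Of the members, 97.7% and 98.4% carried a UMI of Stab2 or Clec4g, and 6 and 8 barcodes qualified on Kdr alone. Levels of Clec4g were 2985 and 2202 CPM in members and 2400 and 1929 CPM in pericentral-type cells, and Stab2 stood at 1255 and 892 CPM against 1308 and 1069 CPM. Arterial markers outside the rule were sparse: of 6, Gja5 and Sema3g were at 0 in WT members and Bmx and Sema3g in Tg members, and the list summed to 71.9 and 49.3 CPM, against 73.6 and 42.8 CPM in pericentral-type cells. Markers of other cells were present in some barcodes. At least 2 UMIs of Kupffer, myeloid, lymphoid, stromal or cholangiocyte markers (mixed barcodes) occurred in 23.6% and 12.7% of members and in 35.9% and 13.95% of pericentral-type cells. At least 2 UMIs of the lymphatic genes Ccl21a, Mmrn1 and Pdpn occurred in 8 and 6 members and in 32 and 7 pericentral-type barcodes. Zone calls and some zone values are given with and without these barcodes and those that lacked both Stab2 and Clec4g. Leaving them out keeps 357 and 753 members, called the stricter selection below.

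Adam23 chose most of the members. It made up 72.2% and 67.0% of their UMIs of the 4 periportal genes, ahead of Ntn4 (16.3% and 21.4%), Dll4 (5.94% and 5.63%) and Efnb2 (5.51% and 5.93%). A UMI of Adam23 was present in 93.25% of the members of each library, and 27.0% and 26.4% of members carried Adam23 and none of the other 3 genes. Ntn4 was seen in 57.8% and 58.0% of members, Dll4 in 36.1% and 26.5%, and Efnb2 in 27.2% and 25.2%. In lymphocyte barcodes, which should lack these genes and had medians of 5621 and 4298 UMIs, the shares were 2.91% and 2.26% for Adam23 and 0.679% and 0.540% for Efnb2. Pericentral genes were not absent from the members: 24.1% and 37.0% had no UMI of Kit, Wnt2 or Thbd, and the median member had 3 and 1 such UMIs beside 8 and 5 periportal UMIs.

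The boundary ran through a continuous cloud of barcodes. Members that passed by 1 UMI numbered 121 and 219 (25.5% and 25.1% of members), and had medians of 1634 and 2267 UMIs. Barcodes with equal sums, just outside, numbered 200 and 324, and those with 1 pericentral UMI more numbered 126 and 163. Msr1, which the rule did not use, stood at 258 and 284 CPM in members that passed by 6 or more UMIs. In members that passed by 2 to 5 UMIs it was at 65.6 (49.7–85.0) and 135 (118–153) CPM. It was at 102 (72.2–140) and 47.2 (33.2–65.0) CPM in those that passed by 1, so the WT level did not fall evenly. Barcodes with equal sums had 31.3 (19.4–47.8) and 50.3 (37.8–65.6) CPM. The members just inside and the barcodes just outside thus had overlapping Msr1 intervals in Tg and not in WT.

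**Figure D1:**
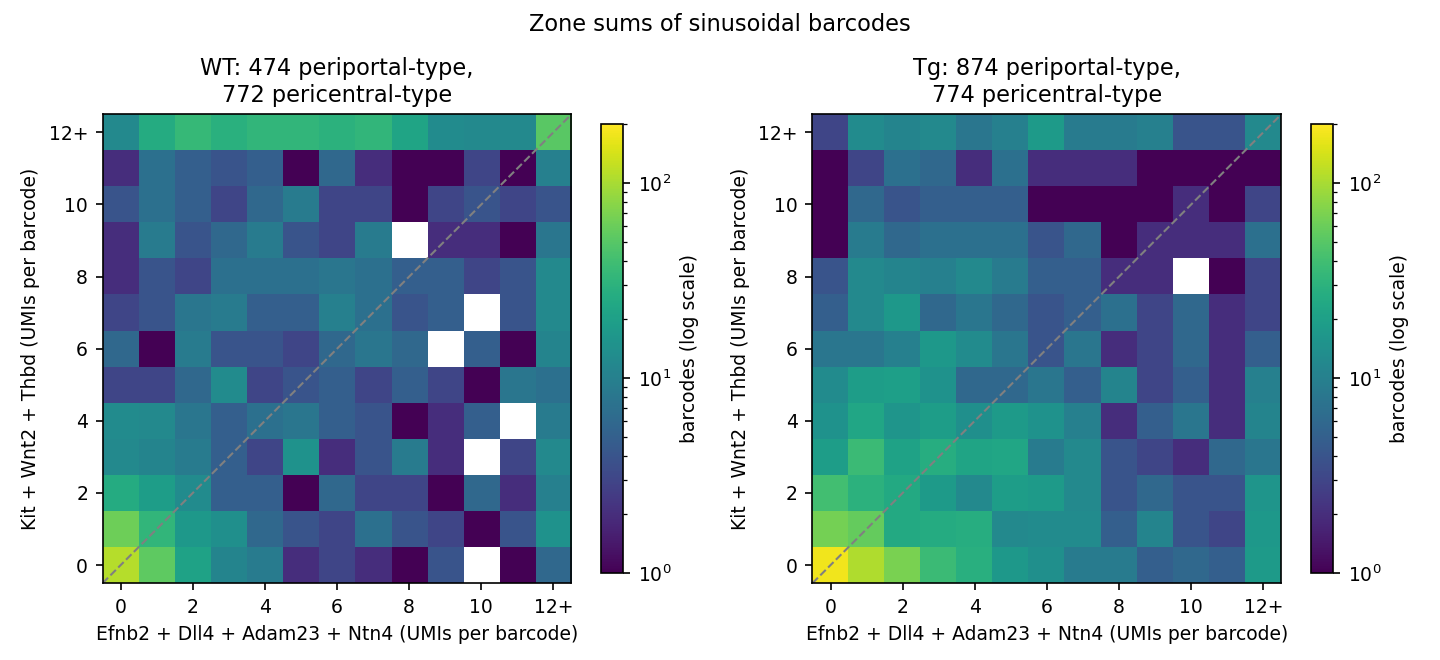
Sinusoidal barcodes of the WT (left) and Tg (right) library by UMIs per barcode of Efnb2, Dll4, Adam23 and Ntn4 (horizontal axis) and of Kit, Wnt2 and Thbd (vertical axis). Colour gives the number of barcodes on a log scale, 12+ pools higher sums, white is no barcode, and members lie to the right of the dashed line of equal sums: 474 in WT and 874 in Tg, with no gap at the line.

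Each of the 7 zone genes was also measured in cells chosen by the other 6, so that its own counts had no part in the choice. Efnb2 differed most. It stood at 88.2 and 83.1 CPM in the periportal-type cells chosen without it, against 32.0 and 25.8 CPM in the pericentral-type cells, log2 ratios of 1.46 (1.14–1.79) and 1.68 (1.34–2.04). Dll4 was at 96.4 and 76.4 against 48.6 and 32.9 CPM, log2 ratios of 0.99 (0.70–1.27) and 1.22 (0.89–1.54). Ntn4 was at 273 and 299.6 against 119 and 137 CPM, with log2 ratios of 1.20 (1.02–1.37) and 1.13 (0.97–1.28). Adam23, the gene that dominates the rule, had the smallest ratios of the 4 when it was left out. Its levels were 1110 and 831 CPM against 776 and 677 CPM, log2 ratios of 0.52 (0.40–0.63) and 0.30 (0.20–0.39), under 1.5-fold in both libraries. The choice without Adam23 also kept fewer cells, 143 and 342.

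The pericentral genes were lower in the periportal-type cells under the same treatment, though less so than the rule itself gives. Thbd stood at 264 and 139 CPM against 456 and 242 CPM, log2 ratios of -0.79 (-0.91 to -0.66) and -0.80 (-0.96 to -0.64). Wnt2 was at 375 and 230.3 against 566 and 419.7 CPM, log2 ratios of -0.59 and -0.87, and Kit at 609 and 402 against 848 and 614.5 CPM, log2 ratios of -0.48 and -0.61. All 7 genes kept, in both libraries, the side the rule gives them.

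**Figure D2:**
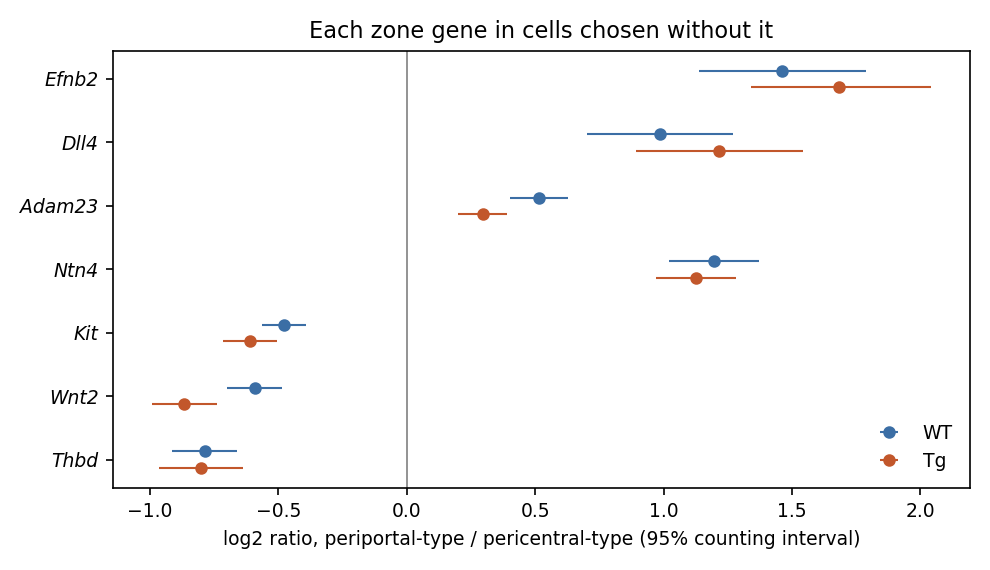
Log2 ratio of periportal-type over pericentral-type cells (horizontal axis) for each zone gene (vertical axis), with both classes chosen without that gene. Points are the WT (blue) and Tg (orange) library and bars are 95% counting intervals; Efnb2 lies farthest from 0 (1.46 and 1.68) and Adam23 closest among the periportal genes (0.52 and 0.30).

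Among all genes, 10896 had at least 20 UMIs over both classes in each library, and a gene was called when it differed by at least 1.5-fold in the same direction in both. By this measure 67 genes (0.615% of those tested) were higher in members, 63 of them outside the rule, and 210 (1.93%) were lower, 205 outside the rule. For 33 and 96 of these the counting intervals of both libraries lay on the same side of 0. Under the stricter selection 75 genes were higher and 117 lower, of which 38 and 57 were also called with all barcodes. Genes called in both selections, with all 4 intervals on 1 side of 0, numbered 19 higher and 24 lower outside the rule. They were singled out after their values had been seen.

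Msr1, the class A macrophage scavenger receptor that takes up modified lipoproteins (chromosome 8, 39581685–39642673, minus strand, GRCm38), had the largest ratio of the 19 higher genes when each gene was ranked by the smaller of its 2 library ratios. It stood at 158 CPM in WT members against 17.5 CPM in WT pericentral-type cells, and at 163 against 20.8 CPM in Tg. The log2 ratios were 3.18 (2.82–3.56) and 2.97 (2.62–3.35), and 3.18 and 3.03 under the stricter selection. A UMI of Msr1 was found in 30.4% (26.3–34.7) and 31.7% (28.6–34.9) of members, in 7.25% and 6.07% of pericentral-type cells and in 0.817% and 0.643% of lymphocyte barcodes. Its UMIs were spread over cells, with 18.1% and 8.13% of them in the 5 richest members. Kupffer cells also express Msr1. The 8 Kupffer markers together were at 18.5 and 29.5 CPM in members, below the 53.6 and 40.5 CPM of pericentral-type cells. Marco and Timd4 were at 0 in the members of both libraries, whereas 7 and 13 members carried at least 2 UMIs of the 8 markers. The part of Kupffer RNA in the Msr1 counts was not tested.

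Cd36, a fatty acid and lipoprotein scavenger receptor, was the second scavenger gene called. Its levels were 448 against 215 CPM in WT and 386 against 161 CPM in Tg, log2 ratios of 1.06 (0.93–1.19) and 1.26 (1.12–1.41). Lyve1, the hyaluronan receptor, passed narrowly at 309.7 against 204.6 CPM and 325 against 212.6 CPM (0.60 and 0.61), and in WT its ratio was 0.10 under the stricter selection. Of the 21 genes tested on the scavenger, lectin and clathrin list these 3 were higher and none was lower, beside 0.615% and 1.93% of all genes, and the list's medians were -0.01 and -0.05. Receptors that define the sinusoid as a whole differed little: Stab1 had log2 ratios of -0.10 and -0.31 and Mrc1, the mannose receptor, of 0.06 and -0.05.

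The Notch target Hes1, a transcriptional repressor (chromosome 16), stood at 269.6 against 155 CPM and at 276.5 against 156 CPM, log2 ratios of 0.80 (0.63–0.96) and 0.83 (0.67–0.98). Lfng, a glycosyltransferase that modifies Notch receptors, went the other way, at 80.7 against 166 CPM and 44.7 against 107.6 CPM (-1.04 and -1.27). These were the only 2 of 18 Notch genes called, 1 in each direction, beside 0.615% of all genes called higher and 1.93% called lower. Notch1 (0.09 and -0.02) and Notch4 (-0.11 and -0.17), the main endothelial receptors, were near 0, and the list's medians were 0.01 and -0.03.

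On the list of other periportal or arterial-side genes, 3 of 10 were higher, beside 0.615% of all genes, none was lower, and the medians were 0.11 and 0.25. Beside Msr1 these were Mecom and Ltbp4. The list was chosen with earlier results of these data known, so its count is a description only. Mecom, a zinc-finger transcription factor of arterial endothelium and of blood stem cells, was sparse at 29.1 against 6.37 CPM and 26.8 against 6.45 CPM (2.19 and 2.06), with a UMI in 9.92% and 7.78% of members and in 2.98% and 2.58% of pericentral-type cells. It was the only 1 of 23 endothelial transcription factors called, again beside 0.615% of all genes. Gata4, which specifies sinusoidal identity, had ratios of 0.27 and 0.32. Ltbp4, which binds latent TGF-beta in the matrix, stood at 504.7 against 318 CPM and at 362 against 207 CPM (0.67 and 0.80), and its WT ratio was 0.45 in cells chosen without Kit.

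On the angiocrine list, 2 of 16 genes were higher (Angpt2 and Ccn2) and 3 lower (Angptl4, Dkk3 and Pdgfb), with medians of 0.03 and 0.12. On the adhesion and capillarisation list, Lama4 of 16 genes was higher, and Cd34, Plvap and Selp were lower, with medians of -0.10 and -0.27. These counts stand beside 0.615% of all genes called higher and 1.93% called lower. Without barcodes that carried markers of other cells, the WT ratios of Angptl4 and Cd34 were 0.97 and 5.51, above 0, and Pdgfb was at -0.19 in WT in cells chosen without Adam23. Angpt2, the context-dependent antagonist of the Tie2 receptor, was at 22.1 against 4.96 CPM and 19.8 against 5.87 CPM (2.16 and 1.75). Ccn2, a matricellular protein, was at 94.9 against 47.9 CPM and 92.9 against 59.2 CPM (0.99 and 0.65), though 40% of its UMIs in WT members lay in 5 barcodes and its WT ratio was 0.16 after thinning. Thinning drew 1500 UMIs from each barcode and left out shallower ones, 310 of 2120 in WT and 412 of 2502 in Tg, so the cells compared also differed. The laminin chain gene Lama4 was at 121 against 77.2 CPM and 80.7 against 48.97 CPM (0.65 and 0.72), and at 0.00 in WT after thinning. Ednrb, the endothelin B receptor, was at 51.6 against 8.73 CPM and 36.0 against 10.9 CPM (2.56 and 1.73), but 67.5% and 46.6% of its member UMIs lay in 5 barcodes, and 4.64% and 3.66% of members carried one. Hgf, the hepatocyte growth factor, reached 88.7 against 62.5 CPM and 99.7 against 69.5 CPM (0.50 and 0.52), under the fold used, and Bmp2, which signals to hepatocytes to induce hepcidin, was near even (0.05 and -0.11).

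The other named genes among the 19 include Cxcl9, Ly6a, Ifi207 and Plk2. On the lists, none of 20 interferon-response genes and none of 14 antigen presentation genes was called higher between the zones, beside 0.615% of all genes. Zbp1 of the interferon list was called lower (-0.79 and -0.63), beside 1.93% of all genes, and its WT ratio was -0.03 without mixed barcodes. Cxcl9, a chemokine that draws T cells, was at 96.2 against 56.6 CPM and 116 against 52.2 CPM (0.76 and 1.15), and its WT ratio was 0.33 after thinning and 0.40 in cells chosen without Adam23. Ly6a (Sca-1) was at 358 against 219 CPM and 331 against 161 CPM (0.71 and 1.04), with WT ratios of 0.498 and 0.46 in cells chosen without Kit and without Wnt2. Ifi207, of the Ifi200 family of DNA sensors, was at 142.5 against 68.2 CPM and 132 against 75.4 CPM (1.06 and 0.80), and its WT ratio was 0.57 after thinning. Plk2, a polo-like kinase, stood at 204 against 97.4 CPM and 167 against 99.1 CPM (1.07 and 0.75). Past 1.5-fold in both libraries under each of the 22 alternatives run were Msr1, Ednrb, Mecom, Angpt2, Cd36, Plk2, Hes1 and the predicted gene Gm35533, 8 of the 19, except that Angpt2 had no WT value after thinning.

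Lhx6, a LIM-homeobox transcription factor (chromosome 2, 36081953–36105408, minus strand, GRCm38), had the lowest WT ratio among the genes called in both selections. It stood at 4.41 against 58.0 CPM in WT and at 10.3 against 48.1 CPM in Tg, log2 ratios of -3.72 (-4.80 to -2.81) and -2.22 (-2.77 to -1.71). A UMI was found in 2.11% and 4.01% of members and in 20.6% and 14.7% of pericentral-type cells. Cdh13, encoding T-cadherin, was at 157.5 against 303 CPM and 100.2 against 229 CPM (-0.94 and -1.19). Fabp4, a fatty acid binding protein, was at 608 against 1090 CPM and 599 against 1192 CPM (-0.84 and -0.99), and Ptgs1, cyclooxygenase-1, at 302 against 536 CPM and 239 against 423 CPM (-0.83 and -0.82), though its WT ratio was -0.55 in cells chosen without Kit. With Dkk3 (-0.66 and -0.62) and Selp (-1.31 and -1.44), 6 of the 10 genes tested on the list of other pericentral or vein-side genes were lower, beside 1.93% of all genes. That list too was chosen with earlier results of these data known, and its count is a description only. Dkk3 was at -0.41 in WT after thinning. Ackr1 alone was higher (0.59 and 1.52, with a WT interval of -0.23 to 1.40), and the list's medians were -0.75 and -0.72. The venous Wnt-pathway genes Rspo3 and Wnt9b, which the rule only caps, were at 5.74 against 27.6 and 9.48 against 46.0 CPM, and at 3.97 against 17.5 and 6.5 against 21.1 CPM.

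Other genes among the 24, chosen after their values were seen, were Ramp3, Plvap and Alox12. Ramp3, a partner protein of the calcitonin receptor-like receptor, was at 14.6 against 39.6 CPM and 10.02 against 32.9 CPM (-1.45 and -1.71). Plvap, which forms diaphragms of fenestrae, was at 136 against 227 CPM and 88.6 against 181 CPM (-0.74 and -1.03), and its WT ratio was -0.47 in cells chosen without Kit. Alox12, an arachidonate lipoxygenase, was at 19.9 against 31.6 CPM and 18.7 against 32.0 CPM (-0.67 and -0.77), and its WT ratio was 0.09 after thinning. Nos3, the endothelial nitric oxide synthase, had ratios of -0.28 and -0.44, under the fold used. On the haemostasis and vascular tone list 4 of 13 genes were lower (Plat, Plau, Ptgis and Ptgs1) and Ednrb was higher, beside 1.93% and 0.615% of all genes, with medians of -0.21 and -0.44. Without barcodes that carried markers of other cells the WT ratio of Plat was 0.55 and that of Ptgis -0.34, and Plau was at -0.11 in Tg after thinning. No counting intervals are given for these recomputed ratios, so the sign for Plat is not settled. The 18 genes of the VEGF, Tie and junction list gave no call in either direction, beside 0.615% of all genes called higher and 1.93% called lower. Lhx6, Selp, Ramp3, Cdh13, Lfng and Fabp4, 6 of the 24, stayed past 1.5-fold in both libraries under each of the 22 alternatives.

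**Figure D3:**
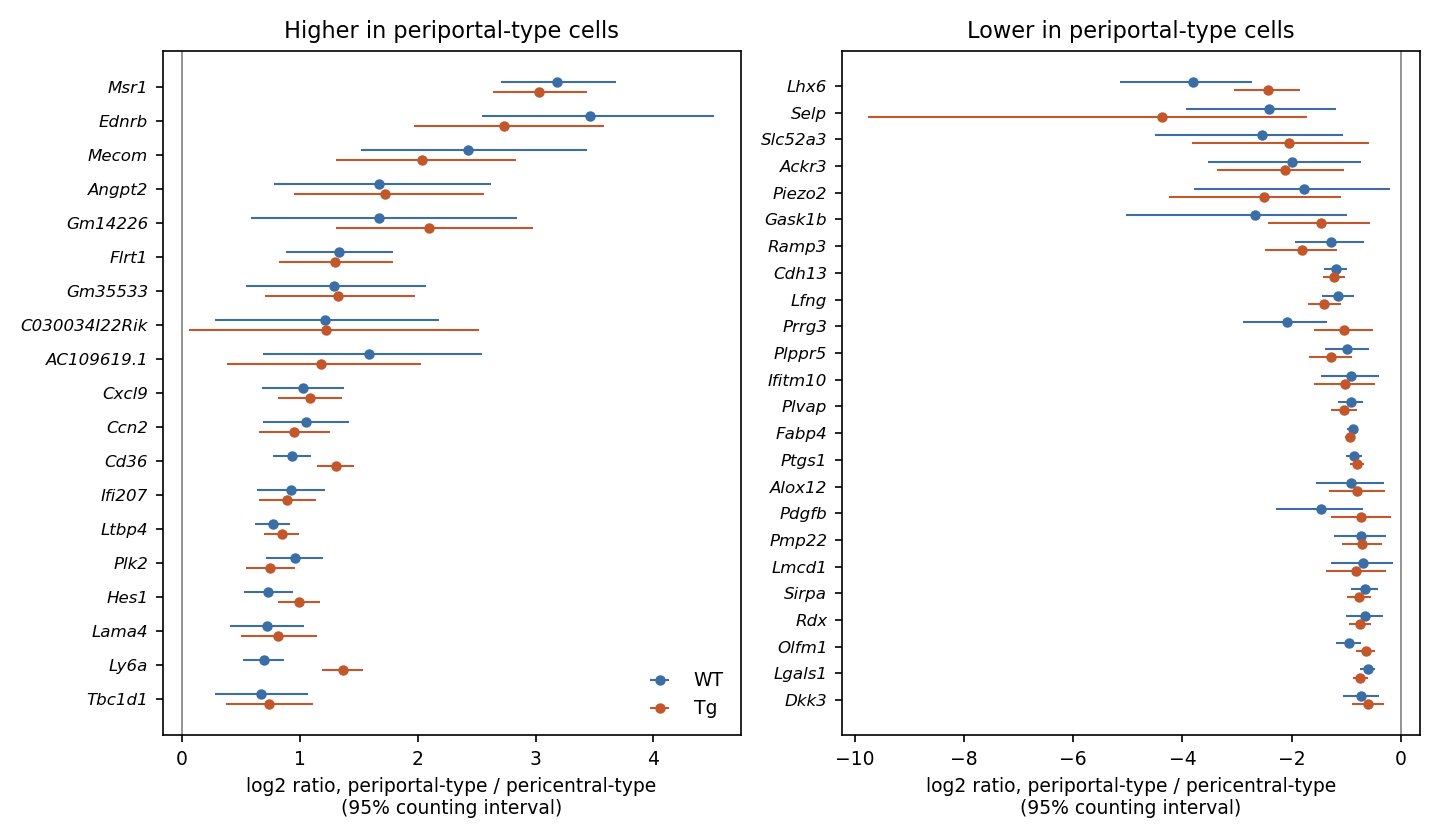
Log2 ratio of periportal-type over pericentral-type cells under the stricter selection (horizontal axes) for the 19 higher (left) and 24 lower (right) genes called in both selections. Not all of these genes are named in the text. WT is in blue, Tg in orange, and bars are 95% counting intervals. Msr1 sits at 3.18 and 3.03, Lhx6 at -3.81 and -2.43, and most of the other genes within 2 log2 units of 0.

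Ranked by size alone, several of the extremes were genes of other cells held by few barcodes. Ccl21a, a lymphatic chemokine, was at 184 against 0.236 CPM in WT and at 17.9 against 0 CPM in Tg, at least 20.3-fold higher there against a floor of 3 counts. Only 0.633% and 0.114% of members carried a UMI of it. Mmrn1, another lymphatic gene, followed (3.96 and 4.74), and the WT ratio turned to -3.64 when Stab2 or Clec4g was required. Of the other genes among the 15 highest, Fgl2 and Plet1 also rested on few barcodes, whereas Colec10, a soluble collectin, was at 27.4 against 12.7 CPM and 18.2 against 7.92 CPM (1.10 and 1.20), and at 0.20 and 0.35 in cells chosen without Adam23. Among the 15 lowest were Cxcl13 (0.441 against 19.4 CPM and 0.813 against 363 CPM), Col1a1, Col1a2, Col3a1, Cdh11, Mgp and Gsn, genes of stromal and mesothelial cells. Enpp2 was also among them, with 21.6% and 77.9% of its member UMIs estimated as hepatocyte-derived. The 9 stromal and mesothelial markers summed to 429 against 1964 CPM in WT and 357.5 against 478 CPM in Tg. With the stricter selection Col1a1 had no UMI left in members or in pericentral-type cells of either library. Col1a1 is itself 1 of the stromal markers by which barcodes were left out, so its absence there describes the selection. Enpp2, which was not used to leave out barcodes, was then at 0.41 (-0.46 to 1.31) in Tg.

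Position between the zones was then graded among sinusoidal cells with at least 5 UMIs of the 7 zone genes (1020 and 1214 cells), in 5 bins of the periportal share of those UMIs. Bin medians lay between 5322.5 and 5647.5 UMIs in WT and between 3745.5 and 4176 UMIs in Tg. Msr1 went from 9.74 (5.19–16.7) to 15.7, 61.2, 128 and 306 (262–355) CPM in WT, and from 3.07 (0.372–11.1) to 28.6, 61.5, 105 and 307 (274.5–342) CPM in Tg. In CPM, its largest step lay between the last 2 bins in both libraries, whereas as a fold the largest step came earlier in both. Cd36 went from 165 to 255, 294, 409 and 758 CPM and from 141 to 204, 248, 331 and 616 CPM, with a step at each bin. Ltbp4 went from 284 to 734 CPM and from 169 to 520 CPM. Hes1 lay at 127, 171 and 211 CPM in the first 3 bins and at 314 and 309 CPM in the last 2 in WT, and at 196, 166, 183, 321 and 352 CPM in Tg, higher in the last 2 bins than in the first 3 in both.

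The pericentral genes ran the other way. Lhx6 went from 69.7 and 61.1 CPM in the first 2 bins to 22.4, 4.18 and 0 CPM in WT, and from 89.0 to 56.5, 21.2, 14.4 and 2.82 CPM in Tg. Cdh13 lay between 269 and 335 CPM in the first 3 bins of WT and at 155.5 and 65.4 CPM in the last 2, and was lower in each successive bin of Tg, from 310.0 to 56.5 CPM. Ptgs1 went from 562 to 228 CPM and from 534 to 215 CPM. Stab2 had its highest level in the second bin (1473 and 1299 CPM) and its lowest in the last (1098 and 901 CPM), and Bmp2 was highest in the third bin of WT (2643 CPM) and the second of Tg (2922 CPM). The bins are made of cells that the zone genes ranked, so these are descriptions of how other genes lay along that ranking.

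**Figure D4:**
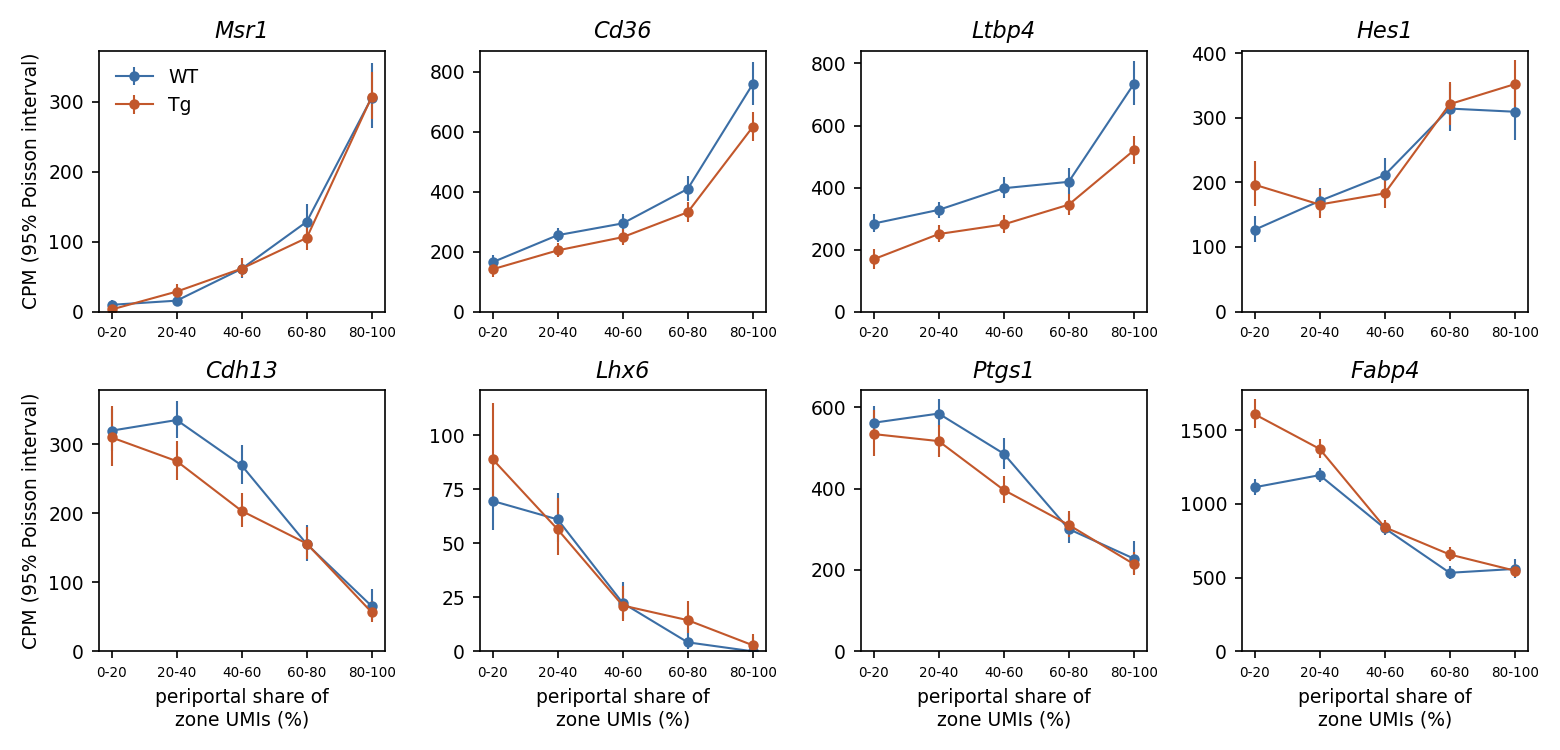
Level in CPM (vertical axes, from 0) of 8 genes outside the rule in 5 bins of the periportal share of zone UMIs (horizontal axes, percent), in WT (blue) and Tg (orange), with 95% Poisson intervals. Msr1, Cd36, Ltbp4 and Hes1 (top) are higher in the periportal bins, and Cdh13, Lhx6, Ptgs1 and Fabp4 (bottom) lower.

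Periportal-type cells were a larger part of the sinusoidal cells in the Tg library than in the WT library. They made up 38.0% (35.3–40.8) of the zone-called sinusoidal cells in WT and 53.0% (50.6–55.5) in Tg, 32.8% and 44.3% of all sinusoidal cells, and 3.66% and 5.88% of kept barcodes. The number of pericentral-type cells was nearly equal (772 and 774). Under the 17 alternatives that change the choice of cells the Tg share was above the WT share each time. The shares ran from 11.7% and 21.8% (without Adam23) to 59.8% and 73.6% (without Kit), and stood at 35.6% and 49.3% at equal depth of 1500 UMIs. The alternatives all reuse the same 2 libraries, so they are not separate readings of the difference. The genes of the rule also differed between the libraries in all sinusoidal cells pooled. Relative to the median gene there (-0.21), Thbd was lower in Tg by a log2 ratio of -0.90 (-0.99 to -0.80), Wnt2 by -0.49 and Kit by -0.39, while Ntn4 was at 0.50 (0.39–0.61), Efnb2 at 0.25, Adam23 at -0.00 and Dll4 at -0.08. Outside the rule, Msr1 was at 0.70 (0.53–0.87), Selp at -1.15, Cdh13 at -0.43 and Ptgs1 at -0.32, but Ltbp4 was at -0.28 and Cd36 at 0.07. Fabp4, also on the pericentral or vein-side list, was not lower in Tg, at 0.13 (0.08–0.18). More periportal-type cells and lower pericentral transcripts in each cell cannot be told apart from these counts, and hepatocyte RNA is part of the totals.

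Within members, 9348 genes had at least 50 UMIs over both libraries. Of these, 865 (9.25%) were at least 1.5-fold higher and 964 (10.3%) at least 1.5-fold lower in Tg. The median gene had a log2 ratio of -0.17 in members and -0.16 in pericentral-type cells, so ratios are given relative to it from here on. On that scale 1116 genes (11.9%) were higher and 424 (4.54%) lower. The 25 hepatocyte markers were all higher and the 5 erythroid markers all lower.

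By the bound of the interval nearest 0, the second gene after Mup9, a major urinary protein of hepatocytes, was Depp1, a regulator of autophagy induced by FOXO factors. It stood at 6.62 (3.70–10.9) CPM in WT members and 73.7 (65.2–83.0) CPM in Tg members, a relative log2 ratio of 3.65 (2.90–4.51), and at 8.02 and 94.1 CPM in pericentral-type cells. A UMI occurred in 2.32% and 16.6% of members, 16.3% of its Tg UMIs were estimated as hepatocyte-derived, and the intervals of the libraries did not overlap. The other 11 of the 12 highest, Mup9, Ces1d, Stbd1, Atp1b1, Clmn, AY036118, Clu, Onecut2, Tm4sf4, Apoe and Alcam, had between 23.2% and 46.2% of their Tg UMIs estimated as hepatocyte-derived, and Mup9 had 85.6% in WT. Mup9, Ces1d, Atp1b1, Alcam, Clu, Onecut2 and Tm4sf4 had between 79.4% and 90.03% of their WT UMIs in 5 members, and Mup9 74.3% of its Tg UMIs. AY036118, with 31.9% of its Tg UMIs estimated as hepatocyte-derived, was found in 43.5% and 68.1% of members (144 and 318.5 CPM, 1.32).

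At the other end, Ifi208, an Ifi200-family gene, was at 30.4 (23.7–38.5) CPM in WT members and had 1 UMI in Tg members (0.271 CPM, interval 0.00686–1.51). The relative log2 ratio was -6.64 (-11.97 to -4.12), and pericentral-type cells had 17.9 and 0.587 CPM. Ltc4s, leukotriene C4 synthase, was at 87.8 and 28.2 CPM (-1.47), in 25.9% and 9.38% of members. Smad6, an inhibitory Smad of BMP signalling, was at 225 and 111 CPM (-0.84, interval -1.04 to -0.65), and Prcp, a prolylcarboxypeptidase, at 148 and 66.9 CPM (-0.98). Snai1, a transcriptional repressor, was at 15.4 and 4.33 CPM in members (-1.66, interval -2.61 to -0.77) and at 10.9 and 13.5 CPM in pericentral-type cells (0.47). Dusp19 was lower in members as well (19.0 and 5.15 CPM, -1.71) and near even in pericentral-type cells (10.9 and 10.6 CPM). The difference between the classes was not tested for either gene. Dusp19 was at -0.48 after thinning, and in cells chosen without Adam23 Smad6 was at -0.55, Dusp19 at -0.47 and Adam19 at -0.04. S100a6, Ezr, Pard6g, Bpgm, Cd52 and Adam19 completed the 12 lowest, and 80.6% and 69.8% of the WT UMIs of S100a6 and Ezr lay in 5 members.

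Of 19 interferon-response genes 16 lay above the median gene, with a median of 0.32 (0.36 in pericentral-type cells), beside calls for 11.9% of all genes in this direction: 2 were called, the ubiquitin-like modifier Isg15 (24.7 and 37.9 CPM, 0.79) and Ifi44 (39.3 and 61.5 CPM, 0.82). Of 13 immediate early genes, induced within minutes of stimulation or tissue handling, 4 were called higher and none lower, beside 11.9% and 4.54% of all genes. The list's median was 0.31 (0.54 in pericentral-type cells). The 4 called were Egr1 (27.8 and 61.5 CPM, 1.32), Fos (35.3 and 66.9 CPM, 1.09), Ier3 (42.4 and 70.4 CPM, 0.90) and Nr4a1 (2 and 49 UMIs, 4.08, interval 2.15–7.17). After thinning Isg15 was at 0.37, under 1.5-fold, and Fos at -0.01. Among 11 heat shock chaperones 3 were called higher, beside 11.9% of all genes: Hspa1b (1.09), Hspd1 (1.14) and Hspe1 (0.80). Of the Tg UMIs of the last 2, 60.03% and 61.6% were estimated as hepatocyte-derived. With that profile subtracted Hspd1 was at 0.37 and Hspe1 at -0.09, and Hspa1b was at 0.52 without mixed barcodes.

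The clock list had the lowest median, -0.43 in members and -0.43 in pericentral-type cells, with 4 of 10 genes called lower beside 4.54% of all genes. Dbp, an output transcription factor of the clock, was at 145 and 73.9 CPM (-0.80, interval -1.03 to -0.56), Nr1d1 (Rev-erb alpha) at 259 and 149.5 CPM (-0.62), Per3 at 34.0 and 13.5 CPM (-1.16) and Cry2 at 15 and 8.40 CPM (-0.67). Of these calls, Cry2 was at 0.18 after thinning, Per3 at -0.44 in cells chosen without Adam23 and Nr1d1 at -0.55 with cells weighted equally. Per1 alone was called higher, at 9.71 and 14.1 CPM (0.71, interval -0.04 to 1.5). The time of day of collection is not given in the labels. Adhesion and capillarisation genes had a median of -0.34, and 1 of 15 lay above the median gene. Cav1 (80.7 and 40.4 CPM, -0.83), Cd9 (222 and 128 CPM, -0.63) and Lamc1 (33.1 and 19.0 CPM, -0.63) were called lower, beside 4.54% of all genes. Cd9 and Lamc1 were each less than 1.5-fold lower with the hepatocyte profile subtracted (-0.47 and -0.46) and at -0.06 and 0.24 after thinning. Cav1 was at -0.30 when Stab2 or Clec4g was required.

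Adenosine genes, which the transgene's enzyme bears on, gave 3 calls of 9, all higher, beside 11.9% of all genes. The receptor gene Adora2a was at 13.7 (9.29–19.4) and 21.7 (17.2–27.0) CPM in members (0.84, interval 0.22–1.48) and at 12.03 and 20.2 CPM in pericentral-type cells, with overlapping level intervals and 0.264% of its Tg UMIs estimated as hepatocyte-derived. With cells weighted equally it was at 0.54, under 1.5-fold. Adk (1.99) and Ahcy, which splits S-adenosylhomocysteine into adenosine and homocysteine (2.28), had 100% and 94.9% of their Tg UMIs estimated as hepatocyte-derived. The same held for the growth factor Igf1 (2.78, 99.3%), the lipid regulator Angptl4 (3.21, 100%) and the endocytic receptor Lrp1 (1.77, 85.2%). Cxcl12, the CXCR4 ligand, was at 15.9 and 41.4 CPM (1.56, 50.9%), and Inhbb, the activin beta-B chain, at 63.1 and 87.2 CPM (0.64, 0.0984%), the latter at 0.51 in cells chosen without Ntn4 or without Kit. The tight junction gene Cldn5 was at 735 and 422 CPM (-0.63), the 1 call among 18 VEGF, Tie and junction genes, beside 4.54% of all genes called lower. It was under 1.5-fold at -0.37 after thinning, -0.56 without mixed barcodes and -0.50 with cells weighted equally. H2-Aa and H2-Ab1, of MHC class II, were called lower (-0.88 and -1.06), with 67.1% and 60% of their WT UMIs in 5 members, and H2-Aa was at -0.52 without mixed barcodes.

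**Figure D5:**
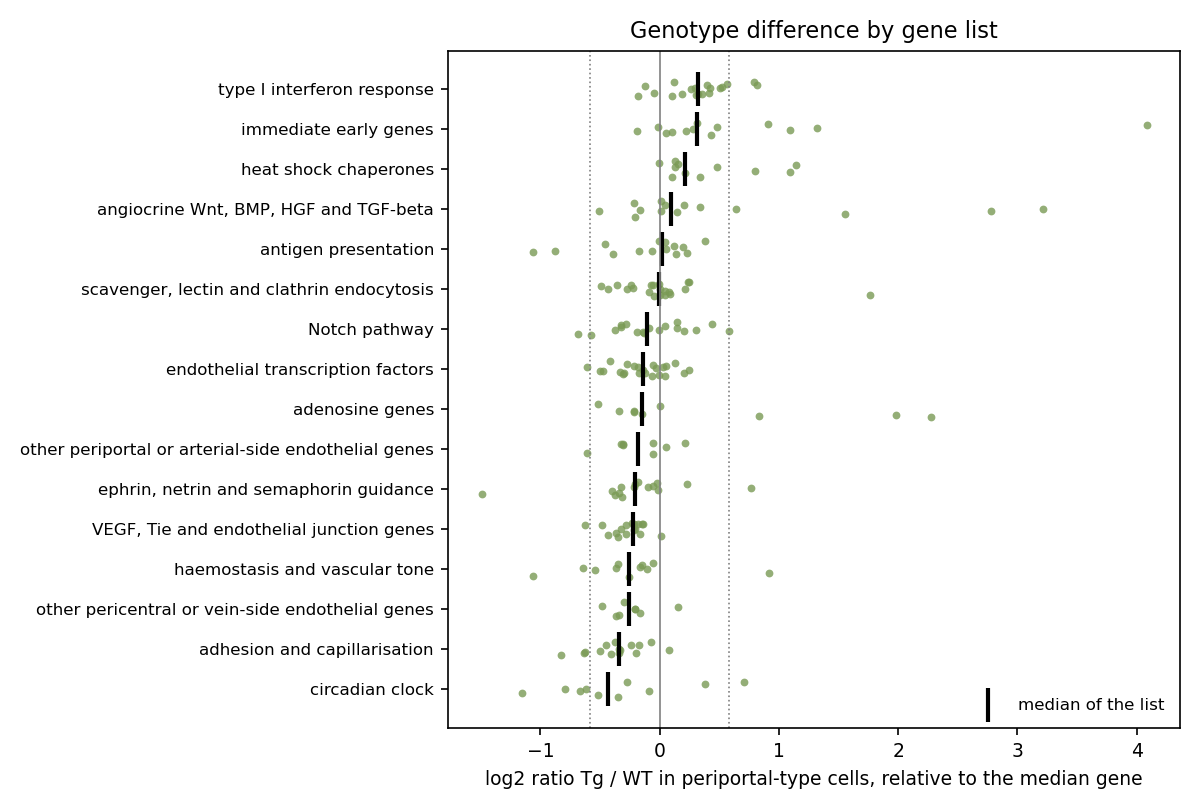
Log2 ratio of Tg over WT in periportal-type cells relative to the median gene (horizontal axis) for the genes of each list (rows, dots) with the list's median (black bar); dotted lines mark 1.5-fold and dots are spread vertically for visibility. The interferon (0.32) and immediate early (0.31) medians are the highest and the clock median (-0.43) the lowest, and the isolated dot at 4.08 is Nr4a1.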

How the data were processed

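Single-cell RNA was measured in 2 libraries, 1 per genotype. Whole-number UMI counts per gene and barcode were deposited (97135016 and 96481752 UMIs in WT and Tg), and were used as deposited. The submitters' processing notes list Cell Ranger 6.1.2, Seurat 4.0.2 and R 4.1.0, and a matrix header names cellranger-5.0.1. The series text mentions removal of ambient RNA and batch integration, and these counts were treated as uncorrected. Gene coordinates come from GENCODE M21 (GRCm38), in which 32235 of 32285 gene IDs matched.

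Barcodes were classed by the rule above, and no doublet caller was run: barcodes with markers of other cells were left out as an alternative. UMIs were summed per class and library and divided by the class total. Intervals are exact Poisson (levels), exact conditional binomial (ratios) and Clopper-Pearson (shares), all at 95%. Genes were called at 1.5-fold, with at least 20 UMIs in each library (zones) or 50 over both (genotypes). The code was tested on simulated data. The genes named were drawn from the 15 highest and 15 lowest by zone (ranked by the smaller ratio of the 2 libraries) and the 12 highest and 12 lowest by genotype. They were also drawn from genes called on the lists and those called in both selections, and not all of these are printed. Genotype ranks used the interval's bound nearest 0, among genes present in at least 5% of the cells of a library. Markers of other cells and predicted genes were left out of these ranks. So were genes with over 50% of UMIs estimated as hepatocyte-derived in the library where they were higher. The members and lists were chosen with earlier results of these data known. Calculations used Python 3.11.15, numpy 2.4.6, scipy 1.17.1 and pandas 2.3.3, and figures matplotlib 3.10.9. Alternatives covered filters, the choice of cells, thinning to 1500 UMIs, scaling and minimum counts.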

Additional observations from a re-analysis of the deposited data

Results flagged for a closer look

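In 7 of the named genes members and pericentral-type cells differed by at least 1.5-fold in opposite directions in the WT and Tg libraries, with both counting intervals apart from 0. Genes with smaller ratios of opposite sign are not counted here, and the difference between the libraries was not tested. The share of all genes that did the same is not given, so the count of 7 is a description only. Values are zone log2 ratios of members over pericentral-type cells. Dusp19, a dual-specificity phosphatase, was at 0.81 in WT and -1.04 in Tg. The MHC class II genes Cd74 (-1.02 and 0.67) and H2-Eb1 (-0.86 and 1.17) were lower in WT members and higher in Tg members. So were the neutrophil genes S100a8 (-0.68 and 1.94) and S100a9 (-0.64 and 1.57), the plasma cell gene Jchain (-1.54 and 4.86) and the mesothelial gene Upk3b (-1.52 and 0.91). B and plasma cell markers summed to 78.1 and 152 CPM in members and to 175 and 8.21 CPM in pericentral-type cells. The 5 richest members held 28.25% and 95.9% of their member UMIs. For the monocyte, dendritic cell and neutrophil list these shares were 9.90% and 61.8%, and for the stromal and mesothelial list 79.5% and 72.5%. The part of such barcodes in the zone ratios was not tested.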

How the results depend on the processing

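No paired analysis of the genotypes was possible because each had 1 library, whereas zone ratios were taken within each library. Of the zone ratios of named genes recomputed under the alternatives, 2767 were within the counting interval, 355 moved and 73 changed sign. For genotype ratios relative to the median gene the counts were 1124, 157 and 12. The cause was not tested for any of them. The removal of lymphatic barcodes, of barcodes without Stab2 and Clec4g, of all doubtful barcodes and of hepatocyte-rich barcodes, and the scaling to the median gene, were chosen after seeing the data.

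The periportal-type share of zone-called cells in WT was 35.3% with a margin of 2 UMIs, 42.2% without mixed barcodes and 42.5% without doubtful ones. In Tg it was 49.3% after thinning. In WT and Tg it was 42.4% and 57.9% without any UMI of Vwf, Rspo3 or Wnt9b, 11.7% and 21.8% chosen without Adam23, 32.9% and 46.95% without Ntn4, 59.75% and 73.6% without Kit, 51.5% and 64.8% without Wnt2, and 46.1% and 58.5% without Thbd.

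Genes higher in members in both libraries (67) numbered 141 chosen without Adam23, 152 without Thbd, 111 with the hepatocyte profile subtracted, 103 with cells weighted equally, 20 at 5 times the minimum and 259 with no minimum. Genes lower in members (210) numbered 113 after thinning, 114 without mixed, 135 without lymphatic and 117 without doubtful barcodes, 357 chosen without Adam23, 73 without Thbd, 43 at 5 times the minimum and 481 with no minimum. Genes higher in Tg (865) numbered 392 after thinning, 518 with the hepatocyte profile subtracted, 334 at 5 times the minimum and 1926 with none. Genes lower in Tg (964) numbered 501 at 10% mitochondrial UMIs, 365 after thinning, 438 with median-of-ratios scaling, 424 relative to the median gene, 591 with the hepatocyte profile subtracted, 455 with hepatocyte markers under 10%, 257 at 5 times the minimum and 2814 with none.

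The sign of these zone ratios turned, for some of them on few UMIs. After thinning, WT values were -1.14 for Mmrn1, -2.31 for Fgl2, 0.12 for Col1a1, 0.86 for Tmem108 and Plat, -1.31 for C030034I22Rik, 0.092 for Alox12, 0.055 for Pmp22 and 0.17 for Cd34, and Tg values 0.042 for Cxcl13 and Mgp, 0.18 for Enpp2, 1.63 for Ifi205, 0.31 for Gsn, 0.36 for Angptl4, 1.81 for Cd34 and 0.40 for Zbp1. Without mixed barcodes, WT values were 0.55 for Cxcl13 and Plat, 0.97 for Angptl4 and 5.51 for Cd34, and Tg values -0.12 for Fgl2, 0.20 for Enpp2, 1.69 for Ifi205, 0.24 for Gsn, 0.92 for Cd34 and 0.47 for Entpd2. Without doubtful barcodes, WT values were 0.54 for Cxcl13 and Plat, 0.96 for Angptl4 and 5.50 for Cd34, and Tg values -0.13 for Fgl2, 0.41 for Enpp2, 0.46 for Col15a1 and Entpd2, 1.68 for Ifi205, 0.23 for Gsn and 2.83 for Cd34. Cxcl13 then had 1 UMI in each class in WT (interval -5.75 to 6.84) and Fgl2 had 3 in each class in Tg (-3.03 to 2.77). The signs of these 2 values are therefore not settled. Without lymphatic barcodes, WT values were -0.36 for Fgl2, 0.78 for Cxcl13 and 1.37 for Entpd2, and Tg values 0.91 for Cd34, 0.027 for Entpd2 and 0.29 for Plat. With Stab2 or Clec4g required, WT values were -3.64 for Mmrn1 and -1.69 for Fgl2.

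Chosen without Thbd, WT values were 1.39 for Emilin2, 0.74 for Myh11, 0.46 for Col1a1, 0.25 for Enpp2, 0.23 for Cdh11, 0.61 for Col3a1, 0.32 for Col1a2, 0.19 for Piezo2, 0.015 for Pmp22, 0.15 for Bhlhe41, 0.94 for Cd34 and Plat, 1.79 for Entpd2, 0.0034 for Neo1, 0.64 for Ptgis and 1.01 for Zbp1, and Tg values 2.06 for Mgp and 0.43 for Cd34. Chosen without Adam23, WT values were 0.80 for Ackr3, 0.39 for Piezo2 and 0.40 for Entpd2, and Tg values -0.15 for C030034I22Rik and 0.33 for Cd34. Fgl2 was at -0.15 in WT without Efnb2 and Plet1 at -0.59 in WT without Ntn4. With cells weighted equally, Cd34 was at 0.36 and Entpd2 at 0.24 in Tg. Genotype ratios that turned were, after thinning, Onecut2 and Per1 (-0.084), Alcam (-0.82), Cry2 (0.18), Fos (-0.012), Lamc1 (0.24) and Ntn1 (0.33). With the hepatocyte profile subtracted they were Hspe1 (-0.091), Igf1 (-1.69), Lrp1 (-0.47) and Sema4a (-0.20, and -0.13 with cells weighted equally).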

Other observations

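Hepatocyte transcripts in these cells were compared by their own zone. In Tg, the summed periportal and pericentral hepatocyte genes had zone log2 ratios of 0.02 (-0.03 to 0.06) and 0.05 (-0.04 to 0.14) between members and pericentral-type cells. In WT they were at 0.46 and -1.25, and the latter was at 0.58 in barcodes with hepatocyte markers under 10% of UMIs.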
